A study of Mus musculus with 24 samples.

Results

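The matrix metalloproteinases (MMPs) and their tissue inhibitors (TIMPs) were followed across 4 myeloid populations of the mouse colon. The 10 genes were chosen by name, as the rows whose Ensembl identifier mapped to Mmp2, Mmp8, Mmp9, Mmp12, Mmp13, Mmp14, Mmp19, Timp1, Timp2 or Timp3. All 10 were present among the 17301 genes of the table, and all 10 passed the filter on low values, which kept 12878 genes with a mean RPKM (reads scaled to gene length and to library size) of at least 1 in at least 1 group. Myeloid cells had been sorted from colon lamina propria (LP) of C57BL/6J mice (strain label C57/BL) and from adenomas of the colon in Apc Min/+ mice (strain label APC/Min), which carry a germline mutation of Apc in all cells and develop intestinal adenomas. The sorted cells were F4/80hi MHCIIhi macrophages, F4/80hi MHCIIlow macrophages, Ly6Chi MHCII- monocytes and Ly6Ghi F4/80- CD11b+ neutrophils. There were 3 libraries for each of these 4 cell types in either tissue (8 groups), all made from pools of 13 to 15 mice, so that the spread between libraries is a spread between pools. The study treated mice with dextran sodium sulphate (DSS) at 6 to 8 weeks of age and analysed them 4 weeks later. According to its methods the control mice received DSS too, at a lower concentration, whereas the labels call the LP healthy, so the treatment of the LP donors is not settled. Strain, DSS dose and the isolation of the cells (EDTA and then collagenase D for LP, collagenase D with DNase I for tumours, and different Percoll steps) all changed with the tissue and cannot be told apart from it. One question of the study was whether tumour macrophages carry more MMP transcripts. It addressed this for Mmp2, Mmp9 and Mmp12 by quantitative PCR, a different measure from the sequencing used here.

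MMPs are zinc-dependent endopeptidases that are made as inactive proenzymes and together can cut most components of the extracellular matrix, as well as chemokines, cytokine precursors and cell surface proteins. TIMPs bind the active site of MMPs and block it, and the balance between both families sets how far matrix is broken down. Myeloid cells are a known source of MMPs in the inflamed and tumour-bearing colon, with neutrophils storing some of them in granules and macrophages secreting others on demand. The measurements below are of messenger RNA and hold no information on proenzyme activation or on stored protein.

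The libraries held between 12.8 and 41.7 M reads on genes, as recovered from the table. Macrophage marker genes summed to at least 4556 RPKM in every macrophage library and to at most 1293 in monocytes and neutrophils, and the neutrophil markers to at least 11430 RPKM in neutrophils and at most 147.6 elsewhere. MHC class II genes separated the macrophage subsets, with 16670 to 45690 RPKM in MHCIIhi and 875.9 to 9853 RPKM in MHCIIlow libraries. Transcripts of fibroblasts differed with the tissue in every sorted population. The 7 fibroblast markers summed to between 7.58 and 68.4 RPKM in the 12 LP libraries and to between 0.0149 and 1.85 RPKM in the 12 tumour libraries. Several members are also made by fibroblasts, and these sums are therefore given again beside the members they moved with. One LP MHCIIlow library (pool II) stood apart from the others of its group in several members, and values that moved most without it are given both ways. Its monocyte markers summed to 452.1 RPKM, against 122.3 and 139.6 RPKM in the other LP MHCIIlow libraries and 372.4 to 492.4 RPKM in LP monocytes. These 5 markers were not particular to monocytes. They summed to 571.9 to 609.9 RPKM in LP neutrophils. In tumours the sums were 645.3 to 865.8 RPKM in monocytes and 754.9 to 996.6 RPKM in neutrophils.

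Mmp13, Mmp12 and Mmp8 lie on the same strand of 1 cluster of MMP genes on mouse chromosome 9. In the GRCm38 build Mmp13 spans chr9:7272514-7283331, Mmp12 spans chr9:7344381-7369499 and Mmp8 spans chr9:7558456-7568485. Timp1 lies at chrX:20870166-20874735, inside the gene Syn1 on the other strand. The other members lie at chr8:92827291-92853420 (Mmp2), chr2:164940780-164955850 (Mmp9), chr14:54431612-54445364 (Mmp14), chr10:128790910-128800824 (Mmp19), chr11:118301069-118355740 (Timp2, minus strand) and chr10:86300372-86349506 (Timp3). The upstream sequences of the chromosome 9 genes and of Timp1 are shown. Over the 8 group means Mmp12 and Mmp13 had alike patterns (Pearson r = 0.875). Mmp8 differed from both, with r = −0.88 to Mmp13 and −0.553 to Mmp12. These are means of log2 values, and that of Mmp8 in LP MHCIIlow macrophages includes a library with 2 reads. MMP promoters are known for AP-1 elements (searched as TGANTCA), ETS elements (searched as AGGAAG) and a TATA box (searched as TATAAA). Each window holds the 250 bases before a RefSeq transcription start of GRCm38.p6, written 5′ to 3′ on the strand of the gene. Capitals mark matches of those 3 motifs on either strand, and no 2 matches overlap.
Mmp13 (chr9:7272264-7272513): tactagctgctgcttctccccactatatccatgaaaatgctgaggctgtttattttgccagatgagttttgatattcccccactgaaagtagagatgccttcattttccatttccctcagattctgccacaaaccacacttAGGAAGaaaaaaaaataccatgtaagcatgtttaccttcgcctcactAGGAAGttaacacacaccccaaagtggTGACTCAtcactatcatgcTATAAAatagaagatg
Mmp12, first start (chr9:7344147-7344396): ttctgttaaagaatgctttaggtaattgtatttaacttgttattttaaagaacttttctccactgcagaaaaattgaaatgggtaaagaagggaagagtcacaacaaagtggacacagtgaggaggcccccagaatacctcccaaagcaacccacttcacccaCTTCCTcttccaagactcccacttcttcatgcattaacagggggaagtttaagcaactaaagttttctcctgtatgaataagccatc
Mmp12, second start (chr9:7347124-7347373): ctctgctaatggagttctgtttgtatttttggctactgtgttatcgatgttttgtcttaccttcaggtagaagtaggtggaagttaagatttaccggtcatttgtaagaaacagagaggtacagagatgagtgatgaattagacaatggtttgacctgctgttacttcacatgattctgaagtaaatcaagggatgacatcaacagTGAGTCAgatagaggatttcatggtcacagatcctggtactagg
Mmp8 (chr9:7558179-7558428): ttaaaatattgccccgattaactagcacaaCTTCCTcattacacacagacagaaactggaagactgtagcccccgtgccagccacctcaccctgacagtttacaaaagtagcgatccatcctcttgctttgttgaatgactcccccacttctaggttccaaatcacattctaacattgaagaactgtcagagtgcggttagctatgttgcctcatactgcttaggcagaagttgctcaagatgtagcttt
Timp1 (chrX:20869916-20870165): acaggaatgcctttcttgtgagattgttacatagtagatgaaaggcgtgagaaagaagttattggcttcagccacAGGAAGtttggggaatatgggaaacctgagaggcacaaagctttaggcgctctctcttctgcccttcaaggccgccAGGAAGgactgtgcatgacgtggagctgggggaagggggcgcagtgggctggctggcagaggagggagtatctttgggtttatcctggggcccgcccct

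The Mmp13 window held 1 AP-1 match, a TATAAA and 2 ETS matches. An AP-1 match was also found before the second annotated start of Mmp12, whereas the windows of its first start, of Mmp8 and of Timp1 held ETS matches only. Over all 32851 promoter windows of this length, 6.75% held an AP-1 match, 12.4% a TATAAA and 29.5% an ETS match. The other members with an entry, Mmp14, Timp2 and Timp3, had no AP-1 or TATAAA match in their windows. Such matches are descriptions of letters only. Mmp2, Mmp9 and Mmp19 were not among the matched promoter entries.

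**Figure D1:**
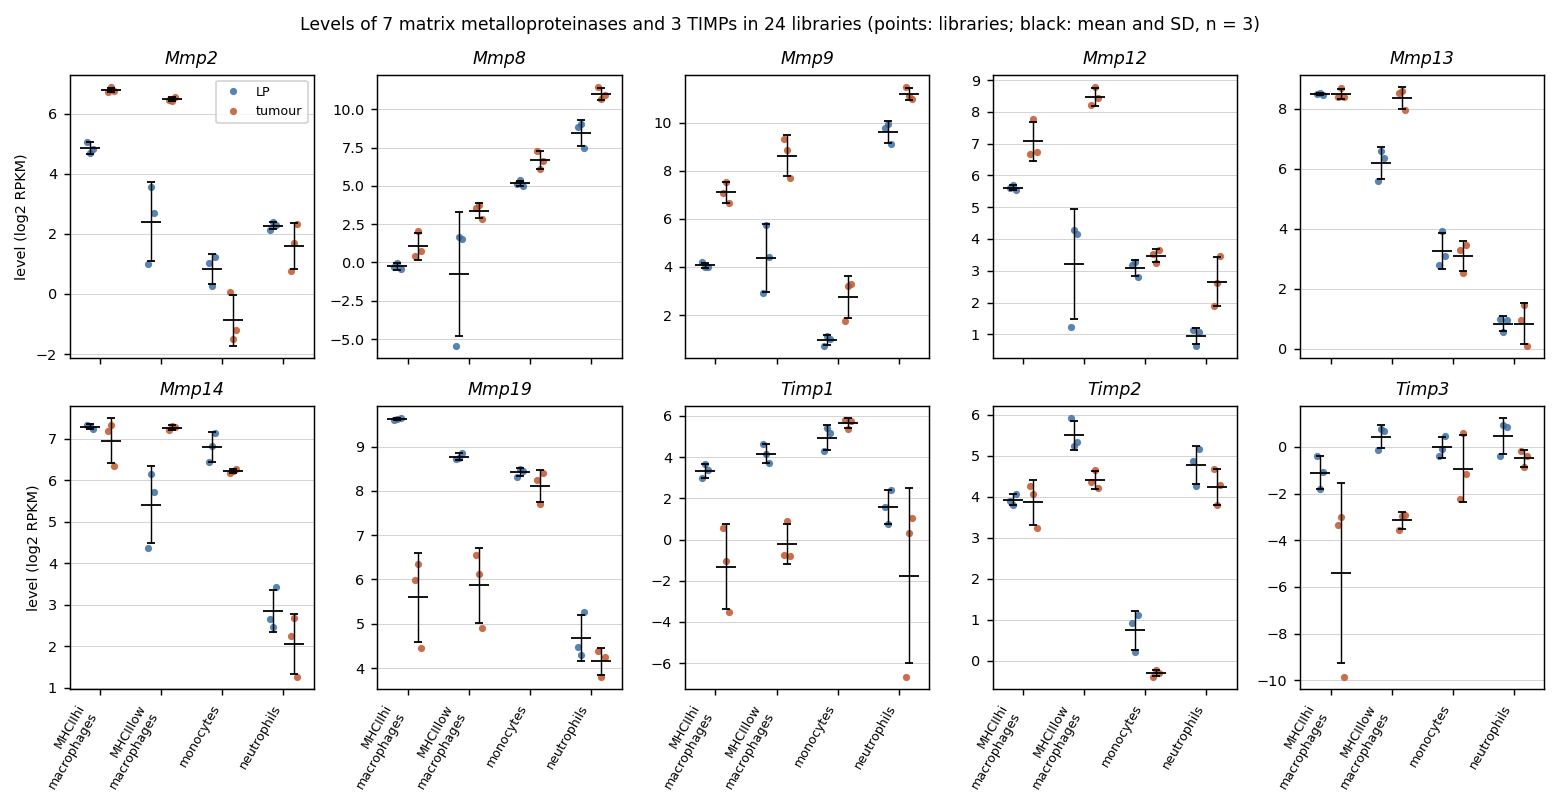
Level of each of the 10 genes (log2 RPKM, y axis, a separate scale per gene) in the 4 sorted populations (x axis) of LP (blue) and tumours (orange). Points are the 3 libraries of a group, and black bars the mean and SD. Mmp8 and Mmp9 were highest in neutrophils, Mmp13 and Mmp12 in macrophages and Timp1 in monocytes, while Mmp19 was low in tumour macrophages and neutrophils.

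The make-up of the MMP transcripts differed between populations. Levels between genes are compared here as RPKM, which is per length. The 7 MMPs summed to 1391 to 1405 RPKM in LP MHCIIhi macrophages, 500.0 to 689 in LP MHCIIlow macrophages and 462 to 546 in LP monocytes, and Mmp19 was the first of the 7 in all 9 of these libraries, with 55.3% to 83.8% of the sum. In tumour MHCIIhi macrophages the sum was 762 to 1184 RPKM and Mmp13 came first in all 3 libraries, while Mmp19 held 2.90 to 7.10% of it. In tumour MHCIIlow macrophages the sum was 1086 to 1658 RPKM, with Mmp9 first in pools I and V and Mmp12 first in pool VII. Mmp9 and Mmp12 together held 50.8 to 56.8% of the MMP sum there, against 1.99 to 10.7% in LP MHCIIlow macrophages. Tumour monocytes kept Mmp19 as the first gene in all 3 libraries. Neutrophils had Mmp9 first in all 6 libraries, and the sum was 789 to 1546 RPKM in LP and 3863 to 5584 RPKM in tumours.

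The 3 TIMPs summed to far less than the 7 MMPs in all libraries, at 9.51 to 86.1 RPKM. A single TIMP was not always below a single MMP. In tumour monocytes the mean of Timp1 was 50.5 RPKM. That was above Mmp12 (11.2), Mmp13 (8.845), Mmp9 (7.46) and Mmp2 (0.615), and below Mmp19 (283), Mmp8 (107) and Mmp14 (74.8). The ratio of the MMP sum to the TIMP sum was 5.81 to 12.1 in LP MHCIIlow macrophages and 56.2 to 78.2 in tumour MHCIIlow macrophages, without overlap. In MHCIIhi macrophages the ratio was 50.0 to 59.5 in LP and 42.5 to 80.1 in tumours, with overlap. It was 12.2 to 20.9 in LP and 8.60 to 9.82 in tumour monocytes, and 18.3 to 67.7 in LP and 178 to 247 in tumour neutrophils. These ratios are descriptions of the transcripts and were given no test.

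**Figure D2:**
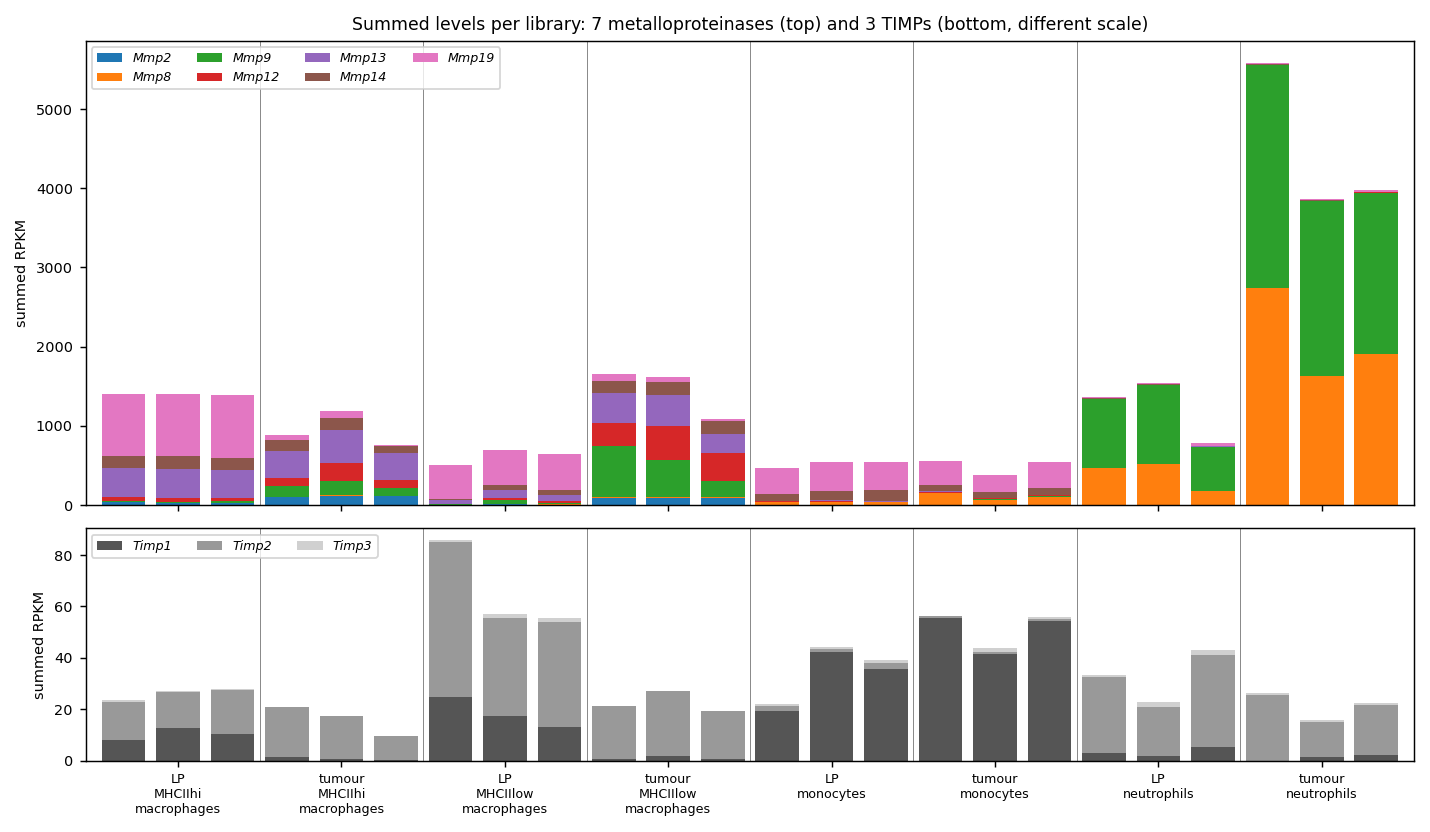
Summed RPKM (y axis, linear, from 0) of the 7 MMPs (top) and of the 3 TIMPs (bottom, a different scale) in each of the 24 libraries, 1 bar per library, grouped by population and tissue. Mmp19 made up most of the MMP bar in LP macrophages and in monocytes, Mmp9 and Mmp8 nearly all of it in neutrophils, and the TIMP bars reached 86.1 RPKM at most.

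Genes were compared with limma on 1 model of the 24 libraries, and a gene was called at an adjusted p under 0.05 (Benjamini-Hochberg over the 12878 genes of a comparison). Fold changes are on the scale of the deposited log2 RPKM, tumour over LP unless stated. In bulk RNA, fewer cells of a kind in a sort and less RNA per cell cannot be told apart.

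Among the gelatinases, which cut denatured collagen and basement membrane collagen, Mmp2 was largely a macrophage transcript. Its levels were 5.06, 4.70 and 4.82 log2 RPKM in LP MHCIIhi macrophages and 6.73, 6.88 and 6.77 in tumour MHCIIhi macrophages. In MHCIIlow macrophages they were 0.98, 3.55 and 2.70 in LP and 6.46, 6.42 and 6.55 in tumours. The tumour libraries of both subsets were above every LP library. Mmp2 rose 3.81-fold in MHCIIhi macrophages (log2 fold change 1.93 ± 0.49 (SE), adjusted p = 0.00732) and 16.7-fold in MHCIIlow macrophages (4.06 ± 0.49 (SE), adjusted p = 3.82e-06). Without LP pool II the rise in MHCIIlow macrophages was 3.35, adjusted p = 1.29e-05. The fibroblast markers moved the other way in these cells, from 7.58 to 68.4 RPKM in LP macrophages to 0.183 to 1.21 RPKM in tumour macrophages.

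Monocytes held little Mmp2, at 1.03, 0.28 and 1.22 in LP and 0.08, −1.51 and −1.20 in tumours, which was 30 to 257 reads per library. The lower level in tumour monocytes passed the test (−1.72 ± 0.49 (SE), adjusted p = 0.0294) but was lost without LP pool III or V or tumour pool II or V (adjusted p up to 0.136), under quantile normalization (adjusted p = 0.0567), with log2(RPKM + 1) (−0.83, adjusted p = 0.125), with only the libraries compared (adjusted p = 0.131) and with voom (adjusted p = 0.202). Fibroblast markers also fell, from 13.6 to 31.8 RPKM in LP monocytes to 0.0149 to 0.185 RPKM in tumour monocytes, and their part in this difference was not tested. B and plasma cell markers moved the same way, from 156.4 to 570.7 RPKM to 0.182 to 4.67 RPKM. Neutrophils had 2.15, 2.39 and 2.28 in LP and 0.78, 1.71 and 2.32 in tumours, which overlapped (−0.67 ± 0.49 (SE), adjusted p = 0.316).

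Mmp9, the other gelatinase, was highest in neutrophils, where it is stored in granules. The levels were 9.76, 9.96 and 9.11 in LP neutrophils and 11.46, 11.11 and 10.99 in tumour neutrophils, without overlap. They were 0.74, 1.14 and 1.02 in LP monocytes and 1.74, 3.22 and 3.28 in tumour monocytes. Monocytes thus had the lowest Mmp9 of the 4 populations in either tissue.

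In macrophages Mmp9 was 4.19, 4.02 and 3.99 in the LP MHCIIhi and 7.07, 7.54 and 6.66 in the tumour MHCIIhi libraries. The MHCIIlow libraries had 2.93, 5.76 and 4.43 in LP and 9.33, 8.87 and 7.68 in tumours. Every tumour library exceeded every LP library of the same subset, and 1 tumour MHCIIlow library (pool I) reached the range of LP neutrophils. Mmp9 rose 8.15-fold in MHCIIhi macrophages (3.03 ± 0.52 (SE), adjusted p = 0.000314) and 19.1-fold in MHCIIlow macrophages (4.26 ± 0.52 (SE), adjusted p = 5.47e-06), the latter at 3.54 (adjusted p = 2.81e-05) without LP pool II. It also passed the test in monocytes (1.78 ± 0.52 (SE), adjusted p = 0.037) and in neutrophils (1.58 ± 0.52 (SE), adjusted p = 0.0265). The call in monocytes was lost without any 1 of LP pools III, IV and V and tumour pools II and V (adjusted p up to 0.14), with voom (adjusted p = 0.245), with only the libraries compared (adjusted p = 0.0772), with log2(RPKM + 1) (adjusted p = 0.0601) and with summed library sizes (adjusted p = 0.0538). That in neutrophils was lost without LP pool V, tumour pool I or tumour pool II (adjusted p up to 0.101), under quantile normalization (0.90, adjusted p = 0.257) with arrayWeights (adjusted p = 0.106) and with library sizes as summed reads (1.11, adjusted p = 0.102).

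RNA of neutrophils carries Mmp9, so the neutrophil markers in the macrophage libraries were set beside it. The 6 markers summed to 23.4 to 39.6 RPKM in LP and 32.8 to 51.1 RPKM in tumour macrophages, against 11430 to 29000 RPKM in neutrophils. Of the 6 markers, 1 was called higher in tumour MHCIIhi and 2 in tumour MHCIIlow macrophages (8.01% and 11.5% of all tested genes were higher). Their median log2 fold change was 0.065 in MHCIIhi and 2.285 in MHCIIlow macrophages, beside 0.00 and 0.06 for all genes. The part of neutrophil RNA in the rise of Mmp9 was not tested. Ly6g, the antigen used to sort neutrophils, had 0 reads in both MHCIIhi groups and in LP MHCIIlow macrophages, and 0 to 40 reads in tumour MHCIIlow macrophages. There were 0.477 to 0.899 reads of S100a8, an abundant neutrophil transcript, for each Mmp9 read in neutrophils, and 0.000103 to 0.00613 in tumour macrophages. Mmp8, also a neutrophil transcript, was itself called higher in tumour MHCIIlow macrophages. There were 64.4 to 148 Mmp9 reads for each Mmp8 read in tumour MHCIIhi and 40.9 to 78.8 in tumour MHCIIlow macrophages. Tumour neutrophils had 1.48 to 1.97.

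**Figure D3:**
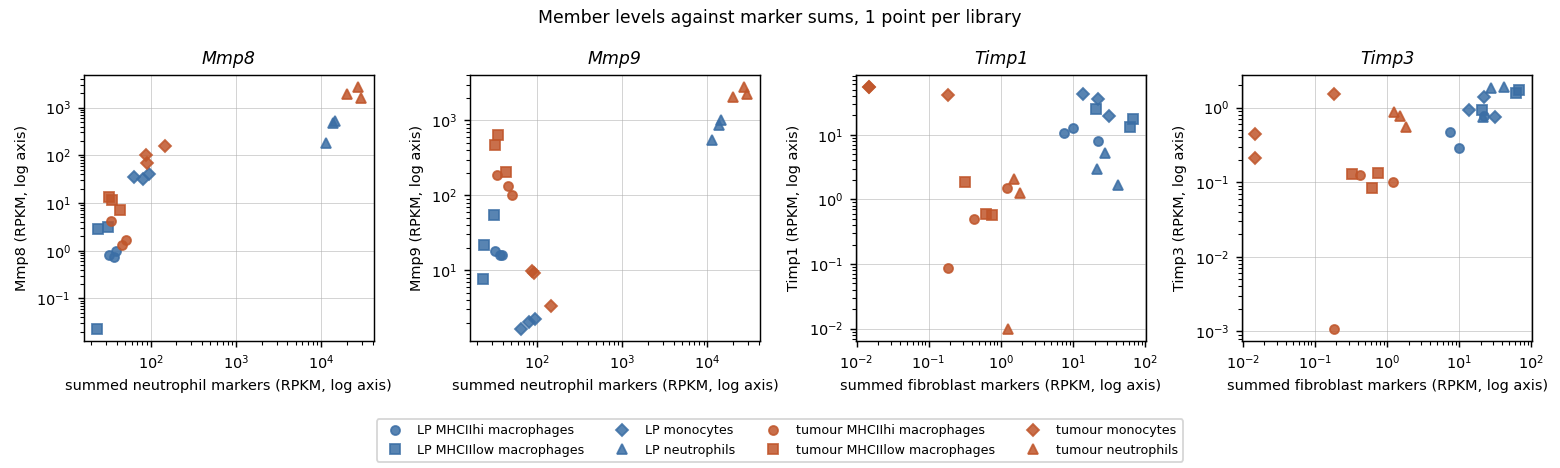
Levels of Mmp8 and Mmp9 against the summed neutrophil markers, and of Timp1 and Timp3 against the summed fibroblast markers (RPKM, logarithmic axes), 1 point per library, with shape for the population and colour for the tissue. Tumour macrophages had 101 to 645 RPKM of Mmp9 at neutrophil marker sums of 32.8 to 51.1 RPKM, and Timp1 stayed high in tumour monocytes at fibroblast marker sums of 0.0149 to 0.185 RPKM.

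Of the collagenases, which cut intact fibrillar collagen, Mmp8 (neutrophil collagenase) was highest in neutrophils. Its levels were 8.86, 9.02 and 7.47 in LP neutrophils and 11.42, 10.66 and 10.89 in tumour neutrophils. Monocytes came next, with 5.11, 5.35 and 5.01 in LP and 7.26, 6.10 and 6.63 in tumours. In both populations the tumour libraries were above the LP libraries without overlap, yet neither difference passed the test (neutrophils 2.54 ± 1.13 (SE), adjusted p = 0.0926, monocytes 1.51 ± 1.13 (SE), adjusted p = 0.48). The Mmp8 values spread widely within 1 group, which enters the shared estimate of the error, and with only the libraries compared the adjusted p was 0.0217 in neutrophils and 0.0447 in monocytes. With voom it was 1.57e-05 and 0.0202.

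That group was LP MHCIIlow macrophages, at −5.43, 1.65 and 1.53 log2 RPKM, where the library of pool II held 2 reads. Tumour MHCIIlow macrophages had 3.56, 3.73 and 2.86, LP MHCIIhi macrophages −0.33, −0.01 and −0.45 and tumour MHCIIhi macrophages 0.39, 2.07 and 0.73. Mmp8 rose in MHCIIlow macrophages (4.13 ± 1.13 (SE), adjusted p = 0.0106), with a smaller value without pool II (1.79, adjusted p = 0.00936), and did not pass with only the libraries compared (adjusted p = 0.208). In MHCIIhi macrophages the difference was 1.33 ± 1.13 (SE), adjusted p = 0.481.

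Mmp13, the other collagenase, was mainly a macrophage transcript. It stood at 8.50, 8.52 and 8.47 in LP MHCIIhi macrophages and at 8.38, 8.69 and 8.41 in tumour MHCIIhi macrophages, with a log2 fold change of −0.00045 ± 0.33 (SE), adjusted p = 1. LP MHCIIlow macrophages had less, at 5.60, 6.61 and 6.37, and tumour MHCIIlow macrophages 8.54, 8.58 and 7.95, which overlapped with the MHCIIhi libraries. Mmp13 rose 4.49-fold in the MHCIIlow subset (2.17 ± 0.33 (SE), adjusted p = 7.1e-05), and by 1.87 without LP pool II (adjusted p = 0.000785).

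Outside macrophages Mmp13 had 2.78, 3.91 and 3.08 in LP and 3.29, 2.52 and 3.46 in tumour monocytes. Neutrophils had 1.00, 0.56 and 0.94 in LP and 0.94, 1.46 and 0.10 in tumours, with 22 to 128 reads. The tissues overlapped in both populations, and neither difference passed the test (adjusted p = 0.841 and 1).

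Mmp12, the macrophage elastase, had its highest level in tumour MHCIIlow macrophages, at 8.21, 8.77 and 8.44. LP MHCIIlow macrophages had 1.21, 4.28 and 4.15, with pool II the lowest at 696 reads. The rise was 38.4-fold (log2 fold change 5.26 ± 0.54 (SE), adjusted p = 6.98e-07), the strongest of the 10 genes in this subset, and was 4.26 (adjusted p = 1.06e-07) without that library. In MHCIIhi macrophages the levels were 5.60, 5.69 and 5.53 in LP and 6.69, 7.78 and 6.74 in tumours. The groups did not overlap, but the difference missed the threshold (1.46 ± 0.54 (SE), adjusted p = 0.0648), and passed it under 8 of 17 alternatives, among them voom on the recovered reads (adjusted p = 0.00772). Of its exon bases 157 lie in exons of Mmp1b on the other strand, which was at −1.73 log2 RPKM or below in all libraries.

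Monocytes held 3.17, 3.28 and 2.80 in LP and 3.54, 3.24 and 3.65 in tumours (0.40 ± 0.54 (SE), adjusted p = 0.748). Mmp12 was low in neutrophils, at 1.13, 0.65 and 1.07 in LP and 1.89, 2.63 and 3.45 in tumours, and rose there (1.71 ± 0.54 (SE), adjusted p = 0.0205). This call was lost without LP pool IV or tumour pool V (adjusted p up to 0.101), under quantile normalization (1.61, adjusted p = 0.0525) and with summed library sizes (1.24, adjusted p = 0.0803). It was also lost with voom (1.56, adjusted p = 0.249), with arrayWeights (adjusted p = 0.0941) and with only the libraries compared (adjusted p = 0.0518). Epithelial markers were higher in tumour neutrophils (151.1 to 307 RPKM against 12.7 to 62.2) and B and plasma cell markers lower (0.650 to 19.8 RPKM against 355.6 to 1288), and their part was not tested.

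Mmp14 encodes a membrane-anchored MMP that cuts collagen at the cell surface and, together with Timp2, activates the proenzyme of Mmp2. It was high in macrophages and monocytes. MHCIIhi macrophages had 7.35, 7.31 and 7.23 in LP and 7.20, 7.33 and 6.34 in tumours, which overlapped (−0.34 ± 0.38 (SE), adjusted p = 0.616). MHCIIlow macrophages had 4.37, 6.16 and 5.71 in LP and 7.22, 7.32 and 7.28 in tumours. The tumour MHCIIlow libraries overlapped with both MHCIIhi groups and lay above all 3 LP MHCIIlow libraries. Mmp14 rose 3.64-fold in the MHCIIlow subset (1.86 ± 0.38 (SE), adjusted p = 0.0012), with 1.34 (adjusted p = 0.00936) without LP pool II.

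For monocytes the Mmp14 levels were 6.44, 6.84 and 7.15 in LP and 6.17, 6.23 and 6.28 in tumours, lower in all 3 tumour libraries but without passing the test (−0.58 ± 0.38 (SE), adjusted p = 0.405). Neutrophils held 2.65, 2.46 and 3.43 in LP and 2.24, 2.67 and 1.27 in tumours (−0.78 ± 0.38 (SE), adjusted p = 0.128). Every neutrophil library was below every monocyte library.

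Mmp19, which cuts basement membrane proteins, was the only one of the 7 MMPs called lower in tumour macrophages. LP MHCIIhi macrophages had 9.60, 9.62 and 9.64 and LP MHCIIlow macrophages 8.71, 8.75 and 8.86, the highest of any group. Tumour MHCIIhi macrophages had 5.98, 6.35 and 4.46 and tumour MHCIIlow macrophages 6.56, 6.12 and 4.91. All 6 tumour macrophage libraries were below all 6 LP macrophage libraries. Mmp19 fell 16.2-fold in MHCIIhi macrophages (−4.02 ± 0.40 (SE), adjusted p = 5.44e-07) and 7.50-fold in MHCIIlow macrophages (−2.91 ± 0.40 (SE), adjusted p = 1.75e-05), and both calls held under all 17 alternatives run for each. Mmp19 was also high in monocytes. The 5 monocyte markers, which were high in neutrophils too, summed to 56.8 to 452.1 RPKM in LP macrophages. In tumour macrophages they summed to 12.3 to 21.6 RPKM. Fibroblast markers also fell, from 7.58 to 68.4 RPKM in LP macrophages to 0.183 to 1.21 RPKM in tumour macrophages. The part of either list was not tested. Every LP macrophage library had more Mmp19 than every monocyte library.

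Monocytes kept their Mmp19, with 8.33, 8.49 and 8.46 in LP and 8.24, 7.70 and 8.40 in tumours (−0.31 ± 0.40 (SE), adjusted p = 0.725). Neutrophils were low in both tissues, at 4.48, 4.28 and 5.26 and 4.38, 3.81 and 4.25 (−0.53 ± 0.40 (SE), adjusted p = 0.334). Of the exon bases of Mmp19, 1001 also lie in exons of Tmem198b or Gm47093 on the other strand. The library kit did not mark strand, so that reads over those bases cannot be assigned. Tmem198b was at 1.08 to 3.97 log2 RPKM as group means and fell in tumour MHCIIhi macrophages too (log2 fold change −1.82, adjusted p = 8.37e-05), whereas in MHCIIlow macrophages its difference was −0.72 (adjusted p = 0.0663).

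Timp1, a secreted inhibitor of most MMPs, was highest in monocytes. LP monocytes had 4.28, 5.40 and 5.16 and tumour monocytes 5.79, 5.37 and 5.77, which overlapped (0.70 ± 1.30 (SE), adjusted p = 0.822). LP MHCIIhi macrophages had 2.98, 3.66 and 3.39 and LP MHCIIlow macrophages 4.63, 4.13 and 3.71. In tumours these fell to 0.57, −1.02 and −3.51 and −0.73, 0.90 and −0.80, which was 2 to 72 reads per library against 205 to 913 in LP. Both groups of tumour macrophages were below all LP macrophages.

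The fall of Timp1 was −4.66 ± 1.30 (SE), adjusted p = 0.0144 in MHCIIhi macrophages and −4.37 ± 1.30 (SE), adjusted p = 0.018 in MHCIIlow macrophages. The first was lost without tumour pool VII (−3.57, adjusted p = 0.0954). The second was lost without LP pool II, tumour pool I or tumour pool VII (adjusted p up to 0.0631). Timp1 values varied most in neutrophils, at 1.58, 0.75 and 2.39 in LP and −6.65, 0.33 and 1.05 in tumours, where tumour pool I had 0 reads and its value is set by the prior count of the table (−3.33 ± 1.30 (SE), adjusted p = 0.0557). Without that library the difference was −0.89 (adjusted p = 0.436), whereas it was called without tumour pool II or V and with log2(RPKM + 1), log2(RPKM + 0.1), a filter at a mean RPKM of 5 and summed library sizes (adjusted p from 0.0102 to 0.0473). Fibroblast markers (6 of 6 tested in either subset) and monocyte markers (3 of 5 in MHCIIhi and 1 of 5 in MHCIIlow macrophages) fell together with Timp1, and their part was not tested. In tumour monocytes, where Timp1 was highest, 6 of the 7 fibroblast markers had 0 reads and their sum was 0.0149 to 0.185 RPKM.

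Timp2, which inhibits MMPs and takes part in the activation of Mmp2 on Mmp14, was carried by macrophages and neutrophils. MHCIIlow macrophages had 5.92, 5.25 and 5.35 in LP and 4.36, 4.65 and 4.22 in tumours. MHCIIhi macrophages had 3.89, 3.81 and 4.07 in LP and 4.27, 4.08 and 3.24 in tumours. Timp2 fell in the MHCIIlow subset (−1.09 ± 0.29 (SE), adjusted p = 0.00948), while the value in MHCIIhi cells was −0.06 ± 0.29 (SE), adjusted p = 0.926. The difference between the subsets did not pass its own test (−1.03 ± 0.42 (SE), adjusted p = 0.274), and the fall was lost without LP pool II (−0.89, adjusted p = 0.0602). Fibroblast markers fell in MHCIIlow macrophages, from 21.2 to 68.4 RPKM in LP to 0.324 to 0.765 RPKM in tumours. They also fell in MHCIIhi macrophages, from 7.58 to 22.1 RPKM to 0.183 to 1.21 RPKM. Their part was not tested.

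Monocytes had the least Timp2, with 0.93, 0.20 and 1.10 in LP and −0.39, −0.22 and −0.30 in tumours. The decrease passed the test (−1.05 ± 0.29 (SE), adjusted p = 0.0284) and was lost without LP pool III or V or any 1 of the 3 tumour pools (adjusted p up to 0.13), and with log2(RPKM + 1), only the libraries compared and voom (adjusted p = 0.161, 0.144 and 0.348). Fibroblast markers fell too, from 13.6 to 31.8 RPKM in LP monocytes to 0.0149 to 0.185 RPKM in tumour monocytes, and their part was not tested. In neutrophils the values were 4.88, 4.27 and 5.17 in LP and 4.67, 3.79 and 4.29 in tumours, with overlap (−0.52 ± 0.29 (SE), adjusted p = 0.188).

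Timp3, an inhibitor that binds to the matrix and also blocks ADAM proteinases, was low throughout. The highest library reached 0.93 log2 RPKM. LP macrophages had −0.39, −1.82 and −1.09 in the MHCIIhi and −0.11, 0.79 and 0.67 in the MHCIIlow subset. Tumour macrophages had −3.33, −3.02 and −9.84 and −3.57, −2.94 and −2.91, with 0 to 46 reads. The pool VII value of tumour MHCIIhi macrophages stood for 0 reads.

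The falls of Timp3 were −4.30 ± 1.20 (SE), adjusted p = 0.015 in MHCIIhi and −3.59 ± 1.20 (SE), adjusted p = 0.0355 in MHCIIlow macrophages. Without tumour pool VII the first became −2.08 (adjusted p = 0.068), and without LP pool III its adjusted p was 0.0606. It was also lost with log2(RPKM + 1) (−0.48, adjusted p = 0.154) and with only the libraries compared (adjusted p = 0.175), and the MHCIIlow value was −1.10 with log2(RPKM + 1). The fall in MHCIIlow macrophages was lost without any 1 of its 6 libraries (adjusted p 0.0571 to 0.094). LP monocytes had −0.40, −0.10 and 0.48 and tumour monocytes −2.25, 0.61 and −1.16, and neutrophils −0.40, 0.93 and 0.88 in LP and −0.19, −0.88 and −0.38 in tumours (adjusted p = 0.729 and 0.585). Timp3 lies inside Syn3, with 1733 of its exon bases in exons of Syn3 on the other strand. Syn3 was at −2.68 log2 RPKM or below in all libraries. Fibroblast markers and Timp3 fell together in macrophages, and the part of the markers was not tested.

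**Figure D4:**
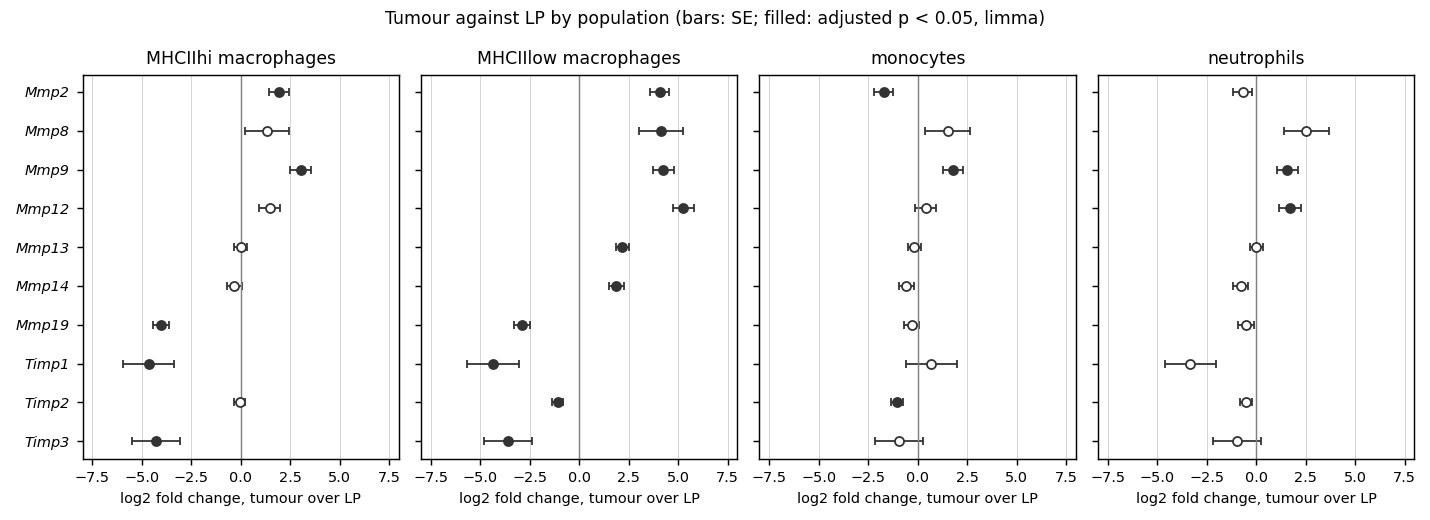
Log2 fold change of each gene, tumour over LP (x axis), in the 4 populations. Bars are the standard errors of the limma fit and filled points passed an adjusted p of 0.05. All 10 genes passed in MHCIIlow macrophages, 5 in MHCIIhi macrophages, 3 in monocytes and 2 in neutrophils.

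Counted over the family, all 10 genes were called between tumour and LP in MHCIIlow macrophages, where 23.3% of all tested genes were called, and 7 remained without LP pool II. Of the 10, 6 rose (Mmp2, Mmp8, Mmp9, Mmp12, Mmp13 and Mmp14) and 4 fell (Mmp19 and the 3 TIMPs), and no gene had overlapping groups. In all tested genes 11.5% rose and 11.8% fell. In MHCIIhi macrophages 5 of 10 were called, against 19.5% of all genes, with 2 rising (Mmp2 and Mmp9, 8.01% of all genes) and 3 falling (Mmp19, Timp1 and Timp3, 11.5% of all genes). The groups of 7 members did not overlap. No share over all genes stands beside the counts of groups without overlap, so they describe the members only. Leaving out tumour pool VII left 3 called.

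In monocytes 3 of 10 were called, against 9.29% of all genes, namely Mmp9 (higher, 4.86% of all genes) and Mmp2 and Timp2 (lower, 4.43% of all genes). With log2(RPKM + 1), with only the libraries compared and with voom these 3 calls were lost and Mmp8 was called instead (adjusted p = 0.035, 0.0447 and 0.0202). None was left called without LP pool III, LP pool V, tumour pool II or tumour pool V. In neutrophils 2 of 10 were called, below the 32.2% of all genes, and both, Mmp9 and Mmp12, were higher (13.1% of all genes were higher and 19.0% lower). The count fell to 1 without LP pool IV, LP pool V or tumour pool I. The median log2 fold change of the 10 genes was 2.01 in MHCIIlow macrophages, −0.03 in MHCIIhi macrophages, −0.24 in monocytes and −0.52 in neutrophils. The medians of all genes were 0.06, 0.00, 0.00 and −0.12.

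The neutrophil comparison depended on how libraries were scaled. With library sizes as summed reads the median of all genes moved by −0.45 in neutrophils and by −0.16 in monocytes, and Mmp9 and Mmp12 stayed upward without a call. Mmp14, Mmp19, Timp1 and Timp2 were then called lower in neutrophils (adjusted p = 0.0119, 0.0335, 0.0218 and 0.00824). Of the called neutrophil genes 40.8% were higher in tumours in the deposited scaling and 16.0% with summed reads. In monocytes the share went from 52.3% to 33.0%, and in MHCIIhi macrophages from 41.1% to 52.2%.

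Between the macrophage subsets of LP, 5 of 10 genes were called, against 7.70% of all genes. MHCIIlow macrophages had less Mmp2 (−2.45 ± 0.49 (SE), adjusted p = 0.00316), Mmp12 (−2.40 ± 0.54 (SE), adjusted p = 0.0089), Mmp13 (−2.30 ± 0.33 (SE), adjusted p = 0.000183) and Mmp14 (−1.88 ± 0.38 (SE), adjusted p = 0.00385) than MHCIIhi macrophages. They had more Timp2 (1.58 ± 0.29 (SE), adjusted p = 0.00184). With only the libraries compared, Mmp2, Mmp12 and Mmp14 were not called (adjusted p up to 0.162). Without LP pool II these 5 calls remained, with smaller differences of −1.74, −1.40, −2.003, −1.36 and 1.37 in the same order. Mmp8 changed sign without that library, from −0.48 to 1.85 (adjusted p = 0.023). Centring on summed reads moved the median of all genes by 0.22 here, and turned the share of called genes higher in MHCIIlow cells from 27.6% to 63.1%.

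Between the subsets of tumour macrophages 0 of 10 were called by limma, against 1.13% of all genes. The differences were largest for Mmp8 (2.32 ± 1.13 (SE), adjusted p = 0.457) and Timp3 (2.26 ± 1.20 (SE), adjusted p = 0.529), ahead of Mmp9 (1.53 ± 0.52 (SE), adjusted p = 0.188), and 4 of the 10 had groups that did not overlap. That of Timp3 was 0.03 without tumour MHCIIhi pool VII, the library with 0 reads. With log2(RPKM + 1) Mmp8 was called (adjusted p = 0.0422). At an unadjusted p under 0.05, 2 of the 10 passed (Mmp9 and Mmp12). Neither this count nor that of groups without overlap has a share over all genes beside it.

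The difference of the tumour effect between both macrophage subsets was tested directly. Mmp12 (3.80 ± 0.77 (SE), adjusted p = 0.0154), Mmp13 (2.17 ± 0.47 (SE), adjusted p = 0.0245) and Mmp14 (2.20 ± 0.54 (SE), adjusted p = 0.0453) changed more in MHCIIlow than in MHCIIhi macrophages, so that 3 of 10 were called, against 1.46% of all genes. The calls of Mmp12 and Mmp14 were lost with only the libraries compared (adjusted p = 0.115 and 0.118), and that of Mmp14 with no filter and with summed library sizes (adjusted p = 0.0541 and 0.0512). The call of Mmp12 was lost without tumour MHCIIlow pool V (adjusted p = 0.0501) and held without LP MHCIIlow pool II (2.80, adjusted p = 0.00364). Those of Mmp13 and Mmp14 did not hold without LP MHCIIlow pool II (adjusted p = 0.0633 and 0.0946). For Mmp13 the same was true of 7 other libraries (any LP MHCIIhi pool, tumour MHCIIhi pools I and VII, tumour MHCIIlow pools I and V) and for Mmp14 of 9 (those 7, LP MHCIIlow pool IV and tumour MHCIIlow pool VII). Mmp2 (2.13 ± 0.69 (SE), adjusted p = 0.145) and Mmp9 (1.23 ± 0.74 (SE), adjusted p = 0.552) did not pass, and Mmp2 passed with log2(RPKM + 1), with voom and without the LP MHCIIlow library of pool III (adjusted p = 0.0347, 0.00199 and 0.0272). Between neutrophils and monocytes the same test called 0 of 10 by limma, against 9.11% of all genes, and 1 (Timp1) had an unadjusted p under 0.05. The latter count has no share over all genes beside it.

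Against monocytes of the same tissue, macrophages carried more Mmp2, Mmp9, Mmp13 and Timp2 in both subsets and both tissues, and less Mmp8. The 3 comparisons with monocytes in a tissue, neutrophils included, share the monocyte libraries. In LP 7 of 10 genes were called for MHCIIhi macrophages (20.1% of all genes) and 6 of 10 for MHCIIlow macrophages (29.5%). In tumours 9 of 10 were called for either subset (32.1% and 32.0% of all genes). The Mmp14 value of tumour MHCIIlow macrophages was 1.05 (adjusted p = 0.0407). Its call was lost without any 1 of the 6 libraries compared (adjusted p 0.0738 to 0.0957) and with median centring (adjusted p = 0.0814). The Timp3 call of tumour MHCIIhi macrophages (−4.46) was lost with only the libraries compared (adjusted p = 0.157). Without tumour MHCIIhi pool VII this Timp3 value was −2.24, still called. Mmp13 had log2 fold changes of 5.24 and 2.94 in LP and 5.40 and 5.27 in tumours (MHCIIhi and MHCIIlow). Those of Mmp2 were 4.02 and 1.57 in LP and 7.67 and 7.35 in tumours, and the LP MHCIIlow call was lost without LP MHCIIlow pools III or IV or LP monocyte pool IV and with only the libraries compared (adjusted p = 0.154). Without LP MHCIIlow pool II it was 2.28 (adjusted p = 0.000443), Mmp12 went from 0.13 to 1.13 and was called (adjusted p = 0.0226), and the call of Mmp14 (−1.40) was lost (−0.87, adjusted p = 0.0725). The Mmp8 value of LP MHCIIlow macrophages was −5.90, −3.56 without that library, and not called with only the libraries compared (adjusted p = 0.0802). The Mmp8 call of tumour MHCIIlow macrophages (−3.28 ± 1.13 (SE), adjusted p = 0.0309) was lost without any 1 of their 3 libraries, without tumour monocyte pool I or V and with summed library sizes (adjusted p = 0.0545). Mmp19 was higher than in monocytes in LP MHCIIhi macrophages (1.19 ± 0.40 (SE), adjusted p = 0.0382), a call lost without any 1 of its 6 libraries, and lower than in monocytes in tumour MHCIIhi (−2.52 ± 0.40 (SE), adjusted p = 4.52e-05) and tumour MHCIIlow macrophages (−2.25 ± 0.40 (SE), adjusted p = 0.000166). Timp1 was lower than in monocytes in tumour macrophages (−6.96 and −5.86, adjusted p = 0.000292 and 0.00154) and had −1.60 and −0.79 in LP macrophages (adjusted p = 0.435 and 0.7). The LP MHCIIhi value was called with log2(RPKM + 1) (−1.51, adjusted p = 0.0072), with only the libraries compared (−1.60, adjusted p = 0.0206) and with voom (−1.66, adjusted p = 0.00174).

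Neutrophils differed from monocytes in 9 of 10 genes in LP (54.5% of all genes) and in 8 of 10 in tumours (58.1% of all genes). Mmp9 was higher by 8.64 in LP and 8.44 in tumours, Mmp8 by 3.30 and 4.33, and Timp2 by 4.03 and 4.55. Mmp14 (−3.97 and −4.16), Mmp19 (−3.75 and −3.97) and Mmp13 (−2.42 and −2.25) were lower in either tissue. Summed library sizes moved the median of all genes by −0.80 in LP and −1.09 in tumours in these comparisons, and the Mmp8 call of LP neutrophils was then lost (adjusted p = 0.065). It was also lost without LP neutrophil pool III or IV. Under quantile normalization the Mmp8 call was lost in both tissues, in LP (2.41, adjusted p = 0.103) and in tumours (2.63, adjusted p = 0.0767). Mmp8 in tumour neutrophils was 3.19 with summed library sizes, still called. In LP the Timp1 call (−3.37, adjusted p = 0.0339) was lost with median centring (adjusted p = 0.0516). It was also lost without LP monocyte pool IV or V or LP neutrophil pool III or IV (adjusted p up to 0.105). The LP Mmp2 call (1.43, adjusted p = 0.0174) was lost with summed library sizes (adjusted p = 0.299). Without LP monocyte pool IV its adjusted p was 0.0827.

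In the order of group means, neighbouring groups often did not differ beyond their spread, taken as overlapping ranges of their 3 libraries. For Mmp9 the order was tumour neutrophils, LP neutrophils, tumour MHCIIlow, tumour MHCIIhi, LP MHCIIlow and LP MHCIIhi macrophages, tumour monocytes and LP monocytes, and overlaps were found between LP neutrophils and tumour MHCIIlow macrophages and between both LP macrophage groups. For Mmp8 only the last pair, LP MHCIIhi and LP MHCIIlow macrophages, overlapped. Mmp2 went from tumour MHCIIhi, tumour MHCIIlow and LP MHCIIhi macrophages, all apart, to LP MHCIIlow macrophages, LP neutrophils, tumour neutrophils and LP monocytes, which overlapped in turn, and last tumour monocytes. The top of Mmp12 (tumour MHCIIlow, tumour MHCIIhi and LP MHCIIhi macrophages) was separated at each step. The top 3 of Mmp13 (LP MHCIIhi, tumour MHCIIhi and tumour MHCIIlow macrophages) overlapped. For Timp1 the 2 monocyte groups and LP MHCIIlow macrophages overlapped in turn at the top, and for Timp2 LP MHCIIlow macrophages stood alone. Mmp14 had 4 groups at the top that overlapped in turn (LP MHCIIhi, tumour MHCIIlow and tumour MHCIIhi macrophages and LP monocytes). For Mmp19 both LP macrophage groups stood apart at the top, and for Timp3 the first 6 groups overlapped in turn, with both tumour macrophage groups last.

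The 3 genes whose 8 group means followed each member most closely were taken from all 12878 tested genes by Pearson correlation, with r from 0.964 to 0.996. These values are descriptions over 8 points that share libraries and scaling, and the best of so many genes is high by selection. They were Cmtm8, Fap and Adamdec1 for Mmp2, and Prdx5, Nbeal2 and Slc16a3 for Mmp8. Mmp9 was followed by Arap3, Cpd and Klc4, and Mmp12 by Hectd3, Chtf18 and Ncbp1. For Mmp13 they were Prmt3, Apoe and Axl, for Mmp14 Bms1, Pdia3 and Dus3l, and for Mmp19 Eif4e, Elp5 and Urgcp. The TIMPs were followed by Cabyr, Camkk2 and Stxbp3 (Timp1), Fam219a, Tns1 and Cep295nl (Timp2) and Mir221, Abcc1 and Casp1 (Timp3). Between members the closest pair was Mmp12 and Mmp13 (r = 0.875), and the most opposed was Mmp9 and Mmp19 (r = −0.891). Some log2 group means include a library with few or no reads. These were Mmp8 in LP MHCIIlow macrophages (2 reads), Timp1 in tumour neutrophils (0 reads) and Timp3 in tumour MHCIIhi macrophages (0 reads). Timp1 in tumour MHCIIhi macrophages also had a library with 2 reads.

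Other MMPs were mostly too low to test, with 3 of the 12 present passing the filter. Mmp7 (matrilysin, an MMP of epithelial cells and tumours) was higher in tumours in all 4 populations by the test. It had 0 reads in all LP macrophage and LP neutrophil libraries, and tumour levels were at least 14.2-fold higher in MHCIIhi macrophages, 23.3-fold in MHCIIlow macrophages and 67.1-fold in neutrophils, against a floor of 3 reads per library. In monocytes the log2 fold change was 4.62 ± 1.40 (SE), adjusted p = 0.0424. Epithelial markers summed to 151.1 to 307 RPKM in tumour neutrophils against 12.7 to 62.2 in LP neutrophils, and to 7.49 to 192.9 in tumour macrophages against 4.95 to 23.3 in LP macrophages, and their part was not tested. Mmp25, a membrane-anchored MMP of leukocytes, fell in MHCIIlow macrophages (−3.78 ± 1.11 (SE), adjusted p = 0.0165).

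Activators, receptors and other inhibitors of MMPs (19 of 25 tested) had 1 gene higher and 7 lower in tumour MHCIIhi macrophages, and 1 higher and 4 lower in MHCIIlow macrophages. Of all tested genes 19.5% were called in MHCIIhi macrophages, 23.3% in MHCIIlow macrophages, 9.29% in monocytes and 32.2% in neutrophils. Their median log2 fold changes were −0.68, −0.50, 0.32 and 0.35 in MHCIIhi macrophages, MHCIIlow macrophages, monocytes and neutrophils, beside 0.00, 0.06, 0.00 and −0.12 for all genes. Plau (urokinase, which makes plasmin, an activator of proMMPs) rose in MHCIIhi macrophages (1.98 ± 0.33 (SE), adjusted p = 0.000228). Serpinb2, an inhibitor of urokinase, fell in MHCIIhi (−7.81 ± 1.40 (SE), adjusted p = 0.00044) and MHCIIlow macrophages (−7.04 ± 1.40 (SE), adjusted p = 0.000887) and rose in neutrophils (6.03 ± 1.40 (SE), adjusted p = 0.00255). Furin, a protease that activates proMmp14, fell in MHCIIhi macrophages (−2.15), as did the proteoglycan Sdc1 (−3.68). In MHCIIlow macrophages Cd44, a receptor that holds Mmp9 at the cell surface, fell (−1.82), as did the plasminogen activator Plat (−2.14), and Bsg, an inducer of MMPs, rose (0.69). Monocytes had 1 gene higher (Plaur, the urokinase receptor, 0.95) and 1 lower (Cd82, −0.51). Neutrophils had 5 higher, led by Serpinb2, Plaur (2.31 ± 0.29 (SE), adjusted p = 6.71e-06) and Itgam (0.87), and 3 lower, among them Furin (−0.82) and Cd82 (−0.50). The counts called in MHCIIlow macrophages and in monocytes were near the shares of all genes.

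Among the ADAM and ADAMTS metalloproteinases 11 of 19 were tested, with medians of 0.47, 0.35, −0.10 and 0.18 in the same order. In MHCIIhi macrophages 4 rose, led by Adamts10 (2.46), Adamdec1 (2.14) and Adam10 (0.95), and 3 fell, Adamts4 (−8.50), Adamts1 (−5.68) and Adam8 (−1.66). MHCIIlow macrophages had 3 higher, the same Adamdec1 (2.76), Adamts10 (2.33) and Adam10 (1.09), and 2 lower, Adamts4 (−9.90) and Adamts1 (−7.84). Adam19 and Adam15 led the rises in monocytes (2.23 and 0.72, with Adam9 0.67), of 3 higher and 2 lower genes (Adamts4 and Adamdec1). Neutrophils had 4 higher, led by Adam19 (2.19), Adamts10 (1.80) and Adam15 (1.29), and 3 lower. The shares of all tested genes called were 19.5%, 23.3%, 9.29% and 32.2% in the same order. Adamts4, an aggrecanase, had 0 to 10 reads in the tumour libraries and 58 to 5271 in LP, so its fitted values depend on the prior count.

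The other matrix-degrading enzymes (11 of 13 tested) had 2 higher and 2 lower in MHCIIhi macrophages, and medians of −0.53, −0.53, −0.63 and −0.49. The first was −0.30 with 1 gene that had 0 reads in 1 group set to its bound against 3 reads per library. Gusb (1.34) and Ctsd (0.59) rose, and Ctsk, a collagen-cutting cathepsin (−3.20), and Hyal2 (−1.51) fell. Of 3 higher and 4 lower genes in MHCIIlow macrophages, Gusb (1.71), Ctsd (0.89) and Ctss (0.76) rose and Ctsk (−2.97), Hpse (−2.21) and Hyal1 (−1.80) led the falls. In monocytes all 4 called genes were lower, led by Hyal2, Lgmn and Ctsd, and neutrophils had 1 higher (Ctsl, 0.70) and 5 lower, led by Ctsk, Lgmn and Ctsd. The shares of all tested genes called were 19.5% (MHCIIhi), 23.3% (MHCIIlow), 9.29% (monocytes) and 32.2% (neutrophils).

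Matrix genes, the substrates of MMPs (14 of 19 tested), had more called genes lower than higher in every tumour population, with 8 lower and 1 higher in MHCIIhi macrophages, 9 and 2 in MHCIIlow macrophages, 7 in monocytes, where all called genes were lower, and 8 and 1 in neutrophils. The list shares 5 genes with the fibroblast markers (Col1a1, Col1a2, Col3a1, Col6a1 and Dcn), so it repeats the fibroblast sums given above. Its medians were −4.18, −5.41, −4.40 and −3.06. Of all tested genes 11.5%, 11.8%, 4.43% and 19.0% were called lower in the same order. With the genes at 0 reads in 1 group set to their bound against 3 reads per library, the monocyte median was −4.24 (5 such genes) and the neutrophil median −2.51 (2 genes). Col1a1 and Col1a2 had 0 reads in tumour monocytes, where LP was at least 90.1-fold and 97.3-fold higher against the floor of 3 reads per library. Col3a1 and Col6a1 in MHCIIhi macrophages, and Col6a1, Col6a2 and Bgn in MHCIIlow macrophages, were the leading falls, with Col1a2, Dcn and Col3a1 in neutrophils. Fn1 (fibronectin) rose in MHCIIhi (1.52 ± 0.45 (SE), adjusted p = 0.0214) and MHCIIlow macrophages (1.97 ± 0.45 (SE), adjusted p = 0.00302) and in neutrophils (1.51). Spp1 (osteopontin, which MMPs cut) rose in MHCIIlow macrophages (2.31 ± 0.49 (SE), adjusted p = 0.00162).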

How the data were processed

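RNA of 24 sorted populations (8 groups of 3 pooled libraries) was sequenced as 51-base pairs from a SMART-type kit that does not mark strand. Per the labels and the study's methods, the authors aligned reads with STAR 2.3 and counted them per gene with featureCounts 1.5 on GRCm38 (mm10). The deposited values are log2 RPKM, to which the authors had added 0.25 reads as a prior count and scaled library sizes. Whole reads were recovered for 100% of genes (tolerance 0.02 reads) and served for read counts, for voom and for the depth of each library (12.8 to 41.7 M reads on genes). Raw values were not transformed further for the main test. The 12878 genes whose mean RPKM reached 1 in any group were fitted with limma 3.58.1 (R 4.3.3, trend) as 8 group means over all 24 libraries, checked on simulated data first, and p-values were adjusted by Benjamini-Hochberg in each of 14 comparisons. The replicates are pools of 13 to 15 mice from 3 experiments. The labels number them as donors, and same-numbered libraries of a tissue deviated together only weakly (29 pairs, r −0.066 to 0.25, median 0.017). The 10 members and all gene lists were chosen with earlier results of these data known. All 10 members are named, and from each other list at most 3 rises and 3 falls per tumour comparison, the largest among called genes whose groups did not overlap, and 1 result is not reported here. Neighbouring groups in an order were compared by the ranges of their libraries. Alternatives were other pseudocounts (1 and 0.1), filters, normalizations, weights, samples, voom, a replicate block, and each library left out. Promoter windows came from RefSeq (GRCm38.p6) and gene positions from GENCODE.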

Additional observations from a re-analysis of the deposited data

Results flagged for a closer look

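The tumour effect differed between the macrophage subsets in 3 of the 10 genes, by the limma test of the difference itself. In MHCIIlow macrophages the log2 fold change, tumour over LP, was 5.26 for Mmp12, 2.17 for Mmp13 and 1.86 for Mmp14. In MHCIIhi macrophages it was 1.46, −0.00045 and −0.34. The differences were 3.80 for Mmp12 (adjusted p = 0.0154), 2.17 for Mmp13 (adjusted p = 0.0245) and 2.20 for Mmp14 (adjusted p = 0.0453). All 3 genes were lower in LP MHCIIlow than in LP MHCIIhi macrophages and not called between the tumour subsets. Without LP MHCIIlow pool II the differences were 2.80, 1.87 and 1.68, and Mmp12 alone was called (adjusted p = 0.00364). Without tumour MHCIIlow pool V the adjusted p of Mmp12 was 0.0501. With only the libraries compared Mmp12 and Mmp14 were not called (adjusted p = 0.115 and 0.118). No explanation was tested.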

How the results depend on the processing

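The 10 genes were recomputed in the 14 comparisons under 11 other settings and without each library in turn, which gave 2486 values. Of these 2260 kept their direction and their side of the threshold, 119 kept the direction but lost the call, 40 gained a call and 67 changed sign. The labels call the pool number a donor within a tissue. With that number as a replicate block, the fit called the same number of the 10 genes in every comparison. Between tumour and LP these were 10 of 10 in MHCIIlow macrophages, 5 in MHCIIhi macrophages, 3 in monocytes and 2 in neutrophils. Each block lay within a tissue, so tumour and LP were not paired. The correlation within blocks was 0.048, which leaves this fit close to the main one. Counts of called genes moved by over 1.5 times in these cases, and the causes were not tested. Between tumour and LP, monocytes had 1 with log2(RPKM + 1), with only the libraries compared and with voom (Mmp8 in each, none of the 3 reported calls), and 0 to 2 leaving out 1 library. Neutrophils had 4 with log2(RPKM + 1), log2(RPKM + 0.1) and summed reads, 0 with quantile normalization and arrayWeights, and 1 to 2 leaving out 1 library. MHCIIhi macrophages had 3 to 5 leaving out 1 library. With only the libraries compared, 3 were called between the LP macrophage subsets, 3 between LP MHCIIlow macrophages and monocytes and 1 for the tumour effect between macrophage subsets, which had 0 to 4 leaving out 1 library. With log2(RPKM + 1), 1 was called between the tumour macrophage subsets and 1 for the tumour effect in neutrophils minus monocytes. Summed reads as library sizes were chosen after seeing the data. Log2 fold changes that changed sign were these, none of them called in the fit reported above. For tumour over LP in MHCIIhi macrophages, Mmp13 was −0.00045 and became 0.26 with quantile normalization, 0.010 with replicate block, 0.0042 with voom, 0.070 with arrayWeights, 0.12 with summed reads, −0.099 to 0.055 leaving out 1 library. Timp2 was −0.064 and became 0.083 with arrayWeights, 0.056 with summed reads, −0.27 to 0.25 leaving out 1 library. For tumour over LP in monocytes, Mmp13 was −0.16 and became −0.40 to 0.16 leaving out 1 library. For tumour over LP in neutrophils, Mmp13 was 0.00049 and became −0.0082 with voom, −0.47 with summed reads, −0.31 to 0.37 leaving out 1 library. For LP MHCIIlow over MHCIIhi macrophages, Mmp8 was −0.48 and became 0.47 with log2(RPKM + 1), 0.18 with log2(RPKM + 0.1), 0.24 with arrayWeights, −1.69 to 1.85 leaving out 1 library. Mmp9 was 0.30 and became −0.39 to 1.03 leaving out 1 library. For tumour MHCIIlow over MHCIIhi macrophages, Mmp13 was −0.13 and became 0.0050 with summed reads, −0.24 to 0.070 leaving out 1 library. Mmp19 was 0.27 and became −0.094 with arrayWeights, −0.30 to 0.74 leaving out 1 library. For LP MHCIIlow macrophages over monocytes, Mmp12 was 0.13 and became −0.078 with voom, −0.40 to 1.13 leaving out 1 library. For LP neutrophils over monocytes, Timp3 was 0.48 and became −0.35 with summed reads. For tumour neutrophils over monocytes, Timp3 was 0.45 and became −0.68 with summed reads, −0.20 to 1.23 leaving out 1 library. For the tumour effect in MHCIIlow minus MHCIIhi macrophages, Timp1 was 0.30 and became −0.48 with log2(RPKM + 1), −0.0076 with log2(RPKM + 0.1), −0.28 with quantile normalization, −0.80 to 1.24 leaving out 1 library. Timp3 was 0.71 and became −0.62 with log2(RPKM + 1), −0.98 with log2(RPKM + 0.1), −0.67 with arrayWeights, −1.51 to 1.90 leaving out 1 library. For the tumour effect in neutrophils minus monocytes, Mmp9 was −0.20 and became 0.17 with log2(RPKM + 1), −0.71 to 0.062 leaving out 1 library. Mmp13 was 0.16 and became −0.14 with summed reads, −0.16 to 0.53 leaving out 1 library. Mmp14 was −0.20 and became 0.15 with quantile normalization, −0.50 to 0.20 leaving out 1 library. Mmp19 was −0.22 and became 0.17 with quantile normalization, −0.42 to 0.076 leaving out 1 library. Timp3 was −0.022 and became 0.14 with quantile normalization, 0.14 with median centring, 0.15 with voom, −0.68 to 0.75 leaving out 1 library.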
